A study of Mus musculus with 8 samples.

Results

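The comparison described here sets cells with induced Etv2 against the wild-type mesoderm from which blood and vessel progenitors arise. It covers every accessible region of the deposited table whose mean over the 8 libraries was at least 10 normalized reads, which were 167573 of 168842 regions (99.2%). The lowest mean inside that limit was 10.0007 and the highest outside it 9.9997. Cells came from mouse embryoid bodies, free-floating aggregates of differentiating embryonic stem (ES) cells, collected on day 4 and sorted on 2 surface receptors, PDGFRalpha and FLK1. The reference group, WT DP (double positive), is PDGFRalpha+FLK1+ cells of the A2lox.Cre line with wild-type genotype and no doxycycline named in the labels. The induced group, OE SP (single positive), comes from the iETV2 line and is PDGFRalpha-FLK1+, after embryoid bodies were given 2 µg/ml doxycycline at day 2.5 to switch on Etv2. A pair of further groups was used only to look at the same regions in other libraries: WT SP, PDGFRalpha-FLK1+ wild-type cells, and KO DP, PDGFRalpha+FLK1+ Etv2 knockout cells. Each group has 2 libraries of 50000 sorted cells, made by Omni-ATAC, in which the Tn5 transposase inserts sequencing adapters into open DNA, and read as 75 bp pairs. Between WT DP and OE SP the ES line, the gate, Etv2 induction and doxycycline all change at once and cannot be told apart. Nothing in the labels ties the libraries of a group to separate cultures, so p-values measure the spread between libraries, which may be technical.

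Etv2 is an ETS-family transcription factor that is switched on briefly in mesoderm and is required for the first blood and endothelial cells. ETS proteins bind DNA at a short core, GGAA, and many endothelial and blood genes carry such cores in their promoters and enhancers. FLK1, the product of Kdr, is the main receptor for the growth factor VEGF. PDGFRalpha marks mesoderm that has kept paraxial and cardiac potential, and loss of PDGFRalpha with retained FLK1 accompanies entry into the blood and vessel lineages.

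The promoters below are those with the 8 largest rises and the 5 largest falls among the called promoters of genes in the lists used here, a set chosen after the values were seen. They come from the RefSeq promoter table of GRCm38.p6 (mm10), each as the 250 bases before the transcript start, read 5′ to 3′ in the direction of the gene. Capitals mark the ETS motifs searched, AGGAAG and CCGGAA, or their reverse complements CTTCCT and TTCCGG. The Tie1 window is chr4:118489850-118490099 (minus strand), Egfl7 chr2:26583615-26583864 (plus), Erg chr16:95459349-95459598 (minus) and Itga2b chr11:102469884-102470133 (minus). The Pf4 window is chr5:90772185-90772434 (plus), Epb42 chr2:121036878-121037127 (minus) and Rasip1 chr7:45627287-45627536 (plus), and those of Rasgrp3 are chr17:75435655-75435904 and chr17:75465288-75465537 (both plus). The Msgn1 window is chr12:11208949-11209198, Otx2 chr14:48662735-48662984, Actc1 chr2:114052876-114053125 and Myl7 chr11:5898783-5899032 (all minus). The first 8 lie under regions that were more accessible in OE SP, and the last 5 under regions that were less accessible, each in order of the size of the change.
Tie1: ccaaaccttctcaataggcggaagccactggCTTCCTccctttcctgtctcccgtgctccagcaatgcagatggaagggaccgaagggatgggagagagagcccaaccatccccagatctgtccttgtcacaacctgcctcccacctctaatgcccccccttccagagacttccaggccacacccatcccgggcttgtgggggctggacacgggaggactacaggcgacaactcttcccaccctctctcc
Rasgrp3 upstream promoter: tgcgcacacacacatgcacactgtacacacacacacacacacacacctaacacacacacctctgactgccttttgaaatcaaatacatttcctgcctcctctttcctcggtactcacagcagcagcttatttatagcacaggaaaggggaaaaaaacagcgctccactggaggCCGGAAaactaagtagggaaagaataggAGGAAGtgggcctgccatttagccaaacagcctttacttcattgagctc
Egfl7: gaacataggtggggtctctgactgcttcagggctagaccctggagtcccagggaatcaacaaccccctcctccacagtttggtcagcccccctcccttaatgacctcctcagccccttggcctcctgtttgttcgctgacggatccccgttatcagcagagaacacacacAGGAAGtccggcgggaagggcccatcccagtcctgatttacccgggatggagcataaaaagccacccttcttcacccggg
Erg: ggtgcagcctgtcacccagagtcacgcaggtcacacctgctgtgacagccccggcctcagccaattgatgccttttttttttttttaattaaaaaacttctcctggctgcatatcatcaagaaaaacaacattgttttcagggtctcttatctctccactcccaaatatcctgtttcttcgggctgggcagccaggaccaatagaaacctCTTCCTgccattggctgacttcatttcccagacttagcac
Itga2b: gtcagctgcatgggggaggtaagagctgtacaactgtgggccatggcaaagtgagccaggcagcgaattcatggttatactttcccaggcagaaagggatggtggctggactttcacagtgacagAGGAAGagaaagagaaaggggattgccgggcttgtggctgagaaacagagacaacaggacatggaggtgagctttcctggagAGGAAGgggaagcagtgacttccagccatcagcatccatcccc
Pf4: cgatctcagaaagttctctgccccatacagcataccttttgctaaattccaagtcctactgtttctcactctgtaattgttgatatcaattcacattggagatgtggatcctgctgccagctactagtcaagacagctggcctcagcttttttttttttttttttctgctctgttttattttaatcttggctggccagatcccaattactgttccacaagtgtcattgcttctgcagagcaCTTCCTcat
Epb42: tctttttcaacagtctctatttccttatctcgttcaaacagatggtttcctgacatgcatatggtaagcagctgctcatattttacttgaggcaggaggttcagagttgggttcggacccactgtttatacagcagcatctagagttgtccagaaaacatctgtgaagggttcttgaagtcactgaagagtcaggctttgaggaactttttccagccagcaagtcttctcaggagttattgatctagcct
Rasip1: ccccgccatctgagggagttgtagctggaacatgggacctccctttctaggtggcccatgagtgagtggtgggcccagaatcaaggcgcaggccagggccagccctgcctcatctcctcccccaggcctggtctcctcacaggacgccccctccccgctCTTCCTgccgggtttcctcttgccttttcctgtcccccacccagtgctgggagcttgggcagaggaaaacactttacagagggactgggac
Msgn1: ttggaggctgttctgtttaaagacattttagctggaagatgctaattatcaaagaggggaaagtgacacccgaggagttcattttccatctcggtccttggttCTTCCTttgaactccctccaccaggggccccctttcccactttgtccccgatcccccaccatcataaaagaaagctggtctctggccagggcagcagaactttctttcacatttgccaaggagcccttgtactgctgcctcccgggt
Otx2: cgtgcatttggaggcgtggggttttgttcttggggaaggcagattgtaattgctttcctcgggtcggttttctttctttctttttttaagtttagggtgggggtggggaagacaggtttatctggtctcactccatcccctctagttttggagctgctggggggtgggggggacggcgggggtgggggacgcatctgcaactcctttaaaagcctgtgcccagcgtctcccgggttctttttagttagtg
Actc1: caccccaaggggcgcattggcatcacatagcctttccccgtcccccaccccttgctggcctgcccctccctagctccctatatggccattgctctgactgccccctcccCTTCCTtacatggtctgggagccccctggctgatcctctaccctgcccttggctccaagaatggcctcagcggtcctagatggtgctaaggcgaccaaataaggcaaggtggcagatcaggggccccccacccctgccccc
Rasgrp3 second promoter: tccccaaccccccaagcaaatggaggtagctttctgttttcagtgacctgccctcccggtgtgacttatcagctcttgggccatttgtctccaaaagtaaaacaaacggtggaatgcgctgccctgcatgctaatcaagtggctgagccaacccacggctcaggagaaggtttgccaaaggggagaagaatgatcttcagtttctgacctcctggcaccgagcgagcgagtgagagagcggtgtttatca
Myl7: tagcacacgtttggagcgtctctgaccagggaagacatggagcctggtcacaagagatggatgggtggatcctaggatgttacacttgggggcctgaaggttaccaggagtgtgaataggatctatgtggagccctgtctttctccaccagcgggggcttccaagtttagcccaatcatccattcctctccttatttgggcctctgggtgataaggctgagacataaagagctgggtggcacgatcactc

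Reads in regions, recovered from the deposited values, numbered 16575336 and 17762310 in WT DP and 18818425 and 13124581 in OE SP, within a range of 12477601 to 18853733 over WT DP, OE SP and KO DP. The OE SP libraries differed from each other more than those of the other groups. Their chi-square per degree of freedom was 4.40, against 1.15 for WT DP, and their correlation of log2 values across regions was 0.937, against 0.978. OE SP replicate 2 read above replicate 1 in 66.0% of all regions and in 78.4% of the regions that rose at least 4-fold, by a median of 0.39 on the log2 scale in the latter. The summed level over the Kdr and Pdgfra regions, the genes of the sort markers, ran from 5235 to 7004 in OE SP and from 5894 to 6176 in WT DP. The Etv2 gene served as a check of the knockout label: a region at its end (chr7:30633790-30634190) held 0 normalized reads in both KO DP libraries, against 124 and 98.8 in WT DP.

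OE SP and WT DP differed in most accessible regions, and more of them closed than opened. At an adjusted p below 0.05 in limma, 35628 regions (21.3%) were higher in OE SP and 55714 (33.2%) were lower, so that 54.5% of all regions were called. Changes of at least 2-fold were called for 25780 regions (15.4%) upward and 41891 (25%) downward, and changes of at least 4-fold for 10000 (5.97%) upward and 12720 (7.59%) downward. The values of the groups did not overlap, OE SP being higher, in 31.9% of regions, and OE SP being lower in 43.2%. The median log2 change of all regions was -0.13, and 90% of regions lay between -2.28 and 2.15. All 4 groups share 1 estimate of the spread in this fit, which understates the spread within OE SP, the group whose libraries differed most. With only WT DP and OE SP fitted, 30472 regions were higher and 48118 lower. Leaving out OE SP replicate 1 moved the median log2 change to -0.04, and leaving out OE SP replicate 2 moved it to -0.21. With 1 OE SP library left, here and below, the spread within OE SP does not enter the fit, so counts of calls from such fits do not check it. The balance of directions depends on the scaling. Rises made up 39.0% of calls with the deposited values and 49.1% with edgeR, and rescaling by median of ratios moved the median change to 0.00, so list medians below are given relative to the median of all regions.

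**Figure D1:**
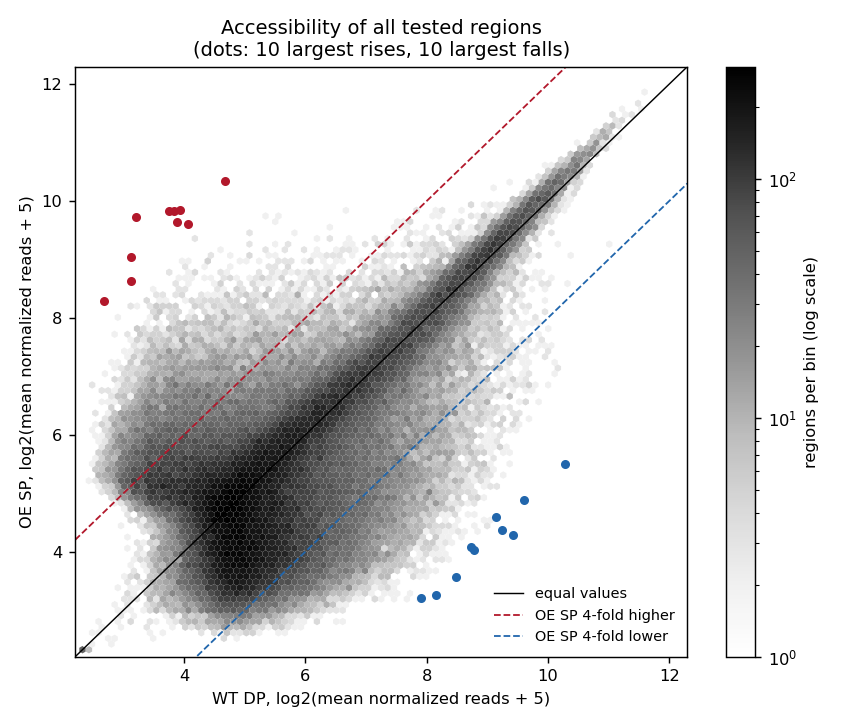
Mean accessibility of the 167573 tested regions in WT DP (horizontal axis) and OE SP (vertical axis), both as log2(mean normalized reads + 5), with the number of regions per bin in grey on a log scale, the line of equal values and dashed lines at 4-fold differences. The red dots are the 10 largest rises and the blue dots the 10 largest falls; the rises start near the bottom of the WT DP range and end high in OE SP, and the falls do the reverse.

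The regions that rose most were nearly closed in WT DP. Among regions that rose at least 4-fold, the median number of normalized reads was 8.74 and 8.08 for WT DP and 70.8 and 93.3 for OE SP. Among regions that fell at least 4-fold it was 97.1 and 98.8 in WT DP and 10.9 and 13.1 in OE SP. These levels describe regions chosen by this difference and carry no test. Of all called rises, 33.0% started from a WT DP mean below 10, beside 7.85% of all tested regions. Of all called falls, 34.1% ended at an OE SP mean below 10, beside 13.0% of all tested regions. A region below 10 in one group passed the limit on the mean only through other groups.

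Change was more frequent away from gene ends. Within 1 kb of either end of a protein-coding gene, 12.8% of 19401 regions rose and 15.0% fell. Inside genes 22.3% of 76716 regions rose and 34.5% fell, and between genes, up to 100 kb away, 22.4% of 53758 rose and 34.3% fell. Beyond 100 kb from any gene 22.8% of 17698 rose and 44.4% fell, the highest share of falls among the 4 classes. The gene-end counts moved with the library left out and with the scaling. With edgeR and after median-of-ratios rescaling, the share of rises was higher at gene ends than inside genes, where 20765 and 20931 regions rose. The number of gene-end rises, 2481, became 7223 without OE SP replicate 1, 6707 with edgeR and 6730 after median-of-ratios rescaling, and 1473 and 1443 without WT DP replicate 1 and 2. The number of gene-end falls, 2916, became 4888 without OE SP replicate 2, 1816 and 1912 without WT DP replicate 1 and 2, and 1448 with DESeq2. The share of rises ran from 19.0% (chromosome 11) to 24.0% (chromosome 18) over the autosomes and was 20.1% on X, while 2 of the 40 regions on Y rose and 9 fell.

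The 10 largest rises included regions at the blood and vessel genes Vav1, Fli1 and Kdr. The largest was inside Prdm15, a zinc finger gene (chr16:97819503-97819903). It read 4.85 and 3.59 in WT DP and 647 and 1029 in OE SP, a log2 change of 6.48 ± 0.25 (SE), with adjusted p = 6.1e-08 in limma. Both OE SP libraries were far above both WT DP libraries. The groups do not overlap in any of the 10 largest rises or 10 largest falls, because the rule required it. A region inside Vav1 (chr17:57290228-57290628), a signalling gene of blood cells, read 7.77 and 10.8 in WT DP and 698 and 1115 in OE SP (log2 5.97). A region 38.7 kb from Fli1, an ETS factor of endothelium and megakaryocytes (chr9:32582091-32582491), read 10.7 and 9.88 in WT DP and 733 and 1106 in OE SP (log2 5.89). A region inside Kdr (chr5:75962170-75962570) read 14.6 and 8.98 in WT DP and 576 and 970 in OE SP (log2 5.51). In these 4 regions no WT DP library exceeded 14.6 reads and no OE SP library fell below 576. The other regions of the 10 lay near Gpr39 (log2 6.07), Sema6a (5.92), Cyp4a10 (5.70) and Ap1m1 (5.65), inside Epn2 (5.50), and 677 kb from the nearest gene on chromosome 7 (5.56).

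The 10 largest falls lay inside or near 8 genes, with the other two beyond 100 kb from any gene. A region inside Kcnd3, a potassium channel gene of heart and neurons (chr3:105494831-105495231), read 680 and 683 in WT DP and 9.48 and 19.7 in OE SP, a log2 change of -5.18 ± 0.24 with adjusted p = 6.12e-08 in limma. A region inside Tenm4, which encodes a teneurin adhesion protein needed for early mesoderm (chr7:96440375-96440775), read 1250 and 1227 in WT DP and 46.7 and 34.2 in OE SP (log2 -4.79). In both regions the OE SP libraries were far below the WT DP libraries; the Tenm4 region ended near the median of all regions in OE SP, 29.9 and 35.5. The others lay inside Grm8 (log2 -5.02), Rbms3 (-4.71) and Sergef (-4.69), near Gm6569 (-4.95), Mrpl46 (-4.92) and Lrp12 (-4.72), and beyond 100 kb from a gene on chromosome 1 (-4.89) and chromosome 9 (-4.79).

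Counted by gene, the largest group of loci changed in both directions. Of 18575 protein-coding genes with a tested region, 7947 had at least 1 rise and 1 fall, 3051 had only rises, 3623 only falls and 3954 neither. The genes with the most rises were long genes with many regions, led by Magi1 (34 rises and 38 falls in 110 regions), Wwox (34 and 34 in 111) and Pde4d (32 and 27 in 99). Tcf4, an E-protein gene, had 23 rises and 15 falls in 60 regions. The remaining genes of the 10 with most rises were Mast4, Trappc9, Zfhx3, Etl4, St6galnac3 and Ptprm, with 23 to 31 rises each. Falls were more one-sided. Auts2, a chromatin regulator gene of neurons, had 97 falls and 16 rises in 140 regions, with a median log2 change of -1.30. Tenm4 had 70 falls and 9 rises in 114 regions, Slit3, a guidance ligand gene, 64 and 11 in 113, and Tenm2 55 and 4 in 81. Ntm, Cdh4, Erc2, Prkce, Tln2 and Asic2 had 44 to 58 falls each. Gene length and region number go together, so these counts rank loci and not the size of a change.

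The Etv2 locus itself changed little. Its 3 tested regions sat at both ends of the gene and inside it. Reads of the locus and any of the induced transgene were not told apart, so these regions are no measure of either alone. The inside region (chr7:30634628-30635028) read 563 and 611 in WT DP and 425 and 645 in OE SP, with a log2 difference of -0.16 ± 0.21 and adjusted p = 0.535 in limma, and the groups overlapped. The gene-end region at chr7:30633790-30634190 read 124 and 98.8 in WT DP and 75.9 and 63.1 in OE SP (log2 -0.64, adjusted p = 0.026). The one at the other end (chr7:30636355-30636755) read 133 and 110 in WT DP and 159 and 290 in OE SP (log2 0.81, adjusted p = 0.0127). The groups did not overlap in either, but both calls were lost when only WT DP and OE SP were fitted. The first was also lost with edgeR, with DESeq2, after median-of-ratios or quantile scaling and without WT DP replicate 1 or OE SP replicate 2, and the second without WT DP replicate 2.

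The Kdr locus changed in both directions, as did the largest group of genes: of its 43 regions, 13 rose and 17 fell. Both shares were above the 21.3% rises and 33.2% falls of all regions. The single regions given here and for Pdgfra were picked for large changes, so the separation of their libraries follows from the choice. Besides the rise inside the gene given above, a second region inside it (chr5:75974659-75975059) read 9.71 and 9.88 in WT DP and 184 and 263 in OE SP (log2 3.93). A region 61.4 kb from the gene (chr5:76040472-76040872) read 20.4 and 28.7 in WT DP and 446 and 540 in OE SP (log2 4.08). In all of these, both OE SP libraries were above both WT DP libraries by at least an order of magnitude. In the opposite direction, a region inside Kdr (chr5:75954181-75954581) read 393 and 377 in WT DP and 15.3 and 18.4 in OE SP, a log2 change of -4.16 ± 0.20 with adjusted p = 7.14e-08 in limma. A further region 29.4 kb from the gene (chr5:76008431-76008831) read 698 and 714 in WT DP and 43.0 and 201 in OE SP (log2 -2.84). Its OE SP libraries differed widely, though both were below WT DP, and the change of this Kdr region was -1.79 without OE SP replicate 1 and -3.89 without replicate 2.

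Pdgfra, whose protein OE SP cells were sorted to lack, had 13 falls and 8 rises in 28 regions. Its shares of falls and of rises were both above those of all regions, 33.2% and 21.3%. At the end of the gene (chr5:75149925-75150325) accessibility was 580 and 657 in WT DP and 108 and 129 in OE SP, a log2 change of -2.34 ± 0.16 with adjusted p = 3.31e-07 in limma. A region 6.67 kb away (chr5:75144255-75144655) read 55.3 and 61.1 in WT DP and 8.75 and 5.26 in OE SP (log2 -2.41). Both OE SP libraries lay below both WT DP libraries in each. The 8 rises included a region 11.8 kb from the gene (chr5:75209999-75210399) with 18.4 and 18.9 in WT DP and 144 and 152 in OE SP (log2 2.70). Pdgfra, Kit and Kdr lie next to each other on chromosome 5, and a region was given to the nearest gene by distance alone.

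**Figure D2:**
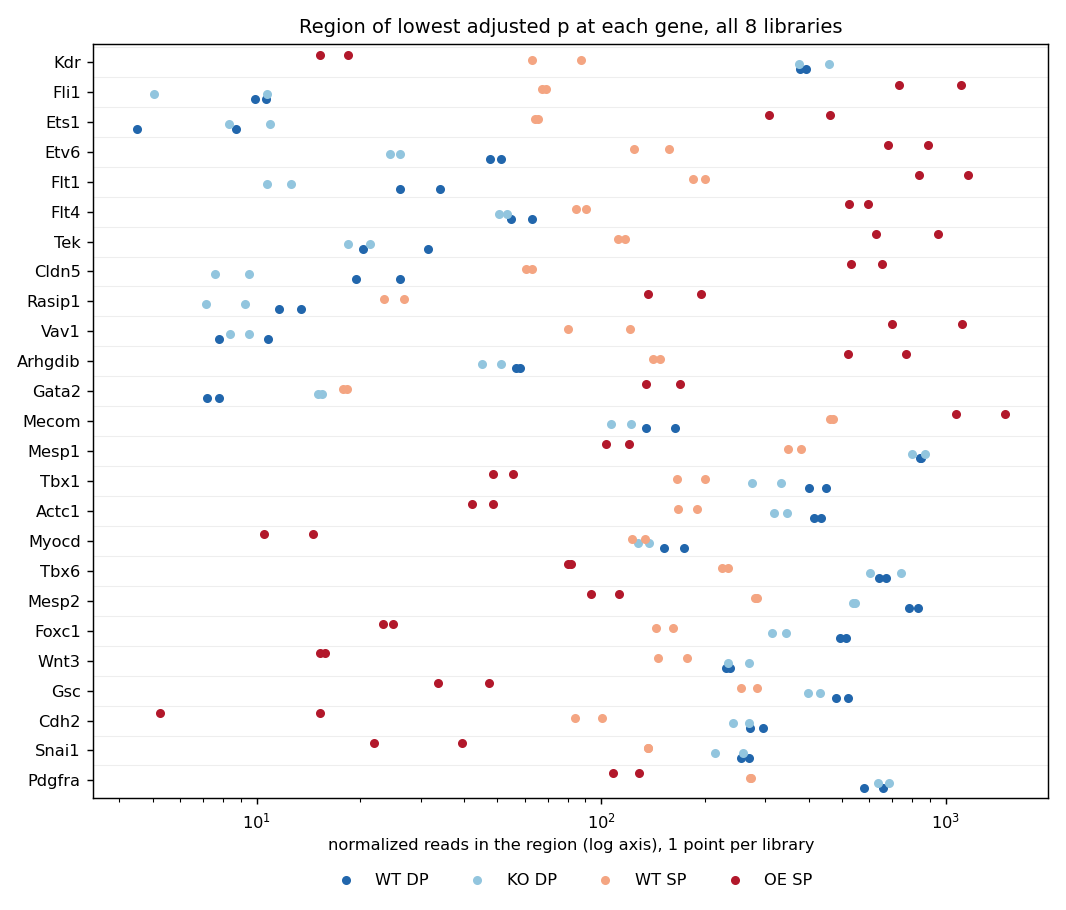
Normalized reads (log axis) in each of the 8 libraries for the region of lowest adjusted p in OE SP against WT DP at 25 genes, 1 point per library, coloured by group. The OE SP points stand apart from the WT DP points at every gene shown, as the choice of regions requires; at Kdr and Pdgfra the region shown is one that fell.

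Across gene lists, endothelial genes had the highest shares of rises and primitive streak genes the highest share of falls. A list is described by the regions nearest to its genes within 100 kb, and the shares are read beside 21.3% rises and 33.2% falls for all regions. Genes named beyond the rule for named regions were picked after their values were seen. The single regions given with coordinates have the lowest adjusted p of their gene, so the separation of their libraries follows from that choice. It adds no support. Over all regions the groups did not overlap in 31.9% with OE SP higher and in 43.2% with OE SP lower.

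Endothelial transcription factors had 114 rises (41.3%) and 62 falls (22.5%) in 276 regions of 14 genes, with a median 0.36 above that of all regions. Elk3, an ETS factor gene, had 17 rises and 2 falls in 25 regions, Fli1 18 and 5 in 39, and Sox7, a SOX factor gene of early endothelium, 4 rises in 4 regions. The region of lowest adjusted p at Ets1 (chr9:32673913-32674313, inside the gene) read 8.74 and 4.49 in WT DP and 307 and 461 in OE SP, a log2 change of 5.06 ± 0.26. At Etv6, an ETS repressor gene needed for blood stem cells, a region inside the gene (chr6:134189738-134190138) read 47.6 and 51.2 in WT DP and 680 and 889 in OE SP (log2 3.85). Both regions were far higher in each OE SP library. Ets2, also an ETS gene, had 4 rises and 13 falls in 27 regions.

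Endothelial receptor and junction genes had 127 rises (41.8%) and 76 falls (25.0%) in 304 regions of 25 genes, with a median 0.47 above all regions. At Tek, the gene of the angiopoietin receptor TIE2, 10 of 18 regions rose and 1 fell. Its gene-end region (chr4:94739199-94739599) read 20.4 and 31.4 in WT DP and 627 and 947 in OE SP, a log2 change of 4.67 ± 0.24 with adjusted p = 8.79e-08 in limma. A region 43.3 kb from Cldn5, the claudin of endothelial tight junctions (chr16:18733122-18733522), read 19.4 and 26.0 in WT DP and 533 and 656 in OE SP (log2 4.44). Both OE SP libraries were above both WT DP libraries in each of these regions. S1pr1, a sphingosine phosphate receptor gene, had 15 rises and 4 falls in 22 regions. Cd93, a surface glycoprotein gene, had 8 rises and 9 falls, and its region of lowest adjusted p was a fall at the gene end (chr2:148444400-148444800), from 680 and 668 to 43.0 and 35.5 (log2 -3.95).

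The VEGF receptor and ligand list was mixed. Over its 8 genes, 52 of 179 regions rose (29.1%) and 55 fell (30.7%). The median was 0.06 above all regions, less than the 0.22 of the housekeeping list. Among the receptors, Flt1 had 22 rises and 6 falls in 42 regions and Flt4, the VEGF-C receptor gene, 7 rises and no fall in 13. A region inside Flt1 (chr5:147657844-147658244) read 34.0 and 26.0 in WT DP and 835 and 1160 in OE SP, a log2 change of 4.83 ± 0.21. One inside Flt4 (chr11:49613332-49613732) read 63.1 and 54.8 in WT DP and 525 and 595 in OE SP (log2 3.14). OE SP was higher in both libraries at each. The co-receptor gene Nrp1 had 9 rises and 14 falls in 36 regions, and a region 83.0 kb from it (chr8:128588471-128588871) fell from 203 and 195 to 10.9 and 10.5 (log2 -3.70). Vegfa, the ligand gene, had 2 rises and 14 falls in 32 regions.

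Genes of lumen formation and small GTPase signalling had 70 rises (39.5%) and 41 falls (23.2%) in 177 regions of 12 genes with a region, with a median 0.32 above all regions. Rasip1, a gene needed for vessel lumen opening, had 2 rises and no fall in 6 regions. A region inside it (chr7:45635231-45635631) read 11.6 and 13.5 in WT DP and 136 and 194 in OE SP, a log2 change of 3.26 ± 0.25. A region 6.37 kb from Fgd5, a Cdc42 exchange factor gene (chr6:91972055-91972455), was already open in WT DP, at 191 and 194, and reached 932 and 1383 in OE SP (log2 2.53). The groups did not overlap at either. Krit1 had no tested region.

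The Notch list had 60 rises (26.8%) and 90 falls (40.2%) in 224 regions of 14 genes, with a median 0.04 below all regions. With regions assigned within 10 kb only, that median was 0.07 above all regions. Jag1, a Notch ligand gene, had 2 rises and 15 falls in 20 regions. Dll4, the ligand gene of arterial endothelium, had 4 rises and 1 fall in 8 regions, and Hey1, a Notch target, 4 rises and no fall in 8. A region inside Notch1 (chr2:26486910-26487310) fell from 583 and 596 to 63.5 and 70.9 (log2 -3.04), while Notch1 as a locus had 11 rises and 8 falls. A region 2.47 kb from Notch4 (chr17:34561419-34561819) rose from 6.80 and 4.49 to 142 and 146 (log2 3.81). In both of these the OE SP libraries agreed closely with each other and lay apart from WT DP.

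Among blood genes the surface and signalling list moved toward rises and the transcription factor list was mixed. Blood surface and signalling genes had 60 rises (38.0%) and 40 falls (25.3%) in 158 regions of 18 genes, with a median 0.38 above all regions. Arhgdib, a signalling gene of blood cells, had 4 rises in 4 regions. The one inside the gene with the lowest adjusted p (chr6:136930729-136931129) read 58.2 and 56.6 in WT DP and 519 and 769 in OE SP, a log2 change of 3.35 ± 0.20. Fermt3, the integrin activator gene kindlin-3, had 3 rises in 3 regions, and Csf3r, a granulocyte receptor gene, 2 rises and 13 falls in 23.

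Blood transcription factor genes had 91 rises (28.0%) and 95 falls (29.2%) in 325 regions of 20 genes. Their median was 0.15 above all regions, less than the 0.22 of the housekeeping list. Tal1, a bHLH factor required for blood formation, had 7 rises and no fall in 8 regions, and Gata2 5 rises and no fall in 8. A region 41.4 kb from Gata2 (chr6:88152065-88152465) read 7.77 and 7.19 in WT DP and 135 and 169 in OE SP, a log2 change of 3.65 ± 0.23. At Mecom, a regulator of blood stem cells, a region inside the gene (chr3:30354190-30354590) read 135 and 164 in WT DP and 1069 and 1487 in OE SP (log2 3.04). OE SP was higher in both libraries in each region. Runx1, required for blood emergence from endothelium, went largely the other way, with 13 rises and 34 falls in 66 regions. Gfi1, a repressor gene of that later step, had 3 falls and no rise in 5 regions, one of them inside the gene (chr5:107720325-107720725) from 260 and 267 to 33.6 and 36.8 (log2 -2.74).

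Erythroid genes and globins had 9 rises (16.4%) and 23 falls (41.8%) in 55 regions of 11 genes with a region, with a median 0.30 below all regions. The falls numbered 15 and 14 without WT DP replicate 1 and 2. Of the globin genes, Hbb-y, Hbb-bh1, Hba-x and Hba-a2 had 1 region each and Hba-a1 none. Ank1, the red cell ankyrin gene, had 1 rise and 12 falls in 21 regions, and Slc4a1, the band 3 anion exchanger gene, 5 falls and no rise in 10. A gene-end region of Epb42, the protein 4.2 gene (chr2:121036720-121037120), rose from 12.6 and 22.5 to 217 and 372 (log2 3.72).

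Both cardiac lists had more falls and fewer rises than all regions. Cardiac transcription factors had 47 rises (12.4%) and 180 falls (47.6%) in 378 regions of 19 genes, with a median 0.39 below all regions. At Mesp1, the factor of the earliest cardiac mesoderm, all 4 regions fell. The region of lowest adjusted p, 2.59 kb from the gene (chr7:79789249-79789649), read 845 and 846 in WT DP and 104 and 121 in OE SP, a log2 change of -2.86 ± 0.15 with adjusted p = 9.23e-08 in limma. A region 3.03 kb from Tbx1, a T-box gene of the second heart field (chr16:18577545-18577945), fell from 448 and 401 to 55.4 and 48.6 (log2 -2.91). A region 90.4 kb from Myocd, the myocardin gene (chr11:65360394-65360794), fell from 174 and 153 to 14.6 and 10.5 (log2 -3.27). The values of the 2 groups were far apart in all 3 regions. Hand1 had 2 rises and 14 falls in 24 regions, Gata4 2 and 15 in 26, and Isl1 2 and 12 in 20, whereas Mef2c, also used in endothelium, had 8 rises and 1 fall in 26.

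Cardiac muscle genes had 34 rises (17.8%) and 88 falls (46.1%) in 191 regions of 23 genes, with a median 0.44 below all regions. Ryr2, the calcium release channel gene, had 4 rises and 24 falls in 38 regions, and a region inside it (chr13:11754282-11754682) fell from 180 and 175 to 8.75 and 6.57 (log2 -3.85). A region 14.2 kb from Actc1, the cardiac actin gene (chr2:114067095-114067495), fell from 415 and 435 to 42.3 and 48.6 (log2 -3.09). A region inside Actn2, the sarcomeric actinin gene (chr13:12299340-12299740), fell from 282 and 317 to 21.9 and 26.3 (log2 -3.39). Each of these was lower in both OE SP libraries. Myl7, the atrial myosin light chain gene, had 5 falls and no rise in 6 regions.

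Paraxial mesoderm genes, which act in the presomitic mesoderm and the somites, had 26 rises (14.3%) and 91 falls (50.0%) in 182 regions of 18 genes, with a median 0.48 below all regions. Rises numbered 17 without WT DP replicate 2. The single region of Tbx6, the T-box factor of presomitic mesoderm (chr7:126785094-126785494, gene end), read 670 and 640 in WT DP and 81.7 and 80.1 in OE SP, a log2 change of -2.94 ± 0.16. Both regions of Mesp2, a segmentation gene, fell, the one at the gene end (chr7:79810677-79811077) from 829 and 785 to 112 and 93.3 (log2 -2.92). A region 8.37 kb from Foxc1, a forkhead gene of paraxial mesoderm (chr13:31797876-31798276), fell from 492 and 513 to 23.3 and 25.0 (log2 -4.12). The OE SP libraries were far below WT DP in all 3. Dll1, the Notch ligand gene of presomitic mesoderm, had 3 rises and 11 falls in 18 regions. Mesp1 and Mesp2 are neighbours, and a region between them is given to the nearer gene.

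The primitive streak list had the lowest share of rises and the highest share of falls of the 21 lists: 10 rises (5.41%) and 118 falls (63.8%) in 185 regions of 16 genes, with a median 0.80 below all regions. Rises numbered 6 without WT DP replicate 1. A region inside Wnt3, the ligand gene that starts the streak (chr11:103804639-103805039), read 237 and 231 in WT DP and 15.3 and 15.8 in OE SP, a log2 change of -3.54 ± 0.18 with adjusted p = 8.49e-08 in limma. A region 28.5 kb from Gsc, the goosecoid gene (chr12:104501709-104502109), fell from 481 and 522 to 33.6 and 47.3 (log2 -3.49). A region 10.5 kb from Fgf8, the fibroblast growth factor gene of gastrulating cells (chr19:45725636-45726036), fell from 334 and 324 to 30.6 and 31.5 (log2 -3.21). No library of one group entered the range of the other at these 3, which were chosen by lowest adjusted p. Lhx1 had 3 rises and 23 falls in 30 regions, Eomes 1 and 12 in 21, Mixl1 0 and 6 in 7, and Fgf8 0 and 7 in 8.

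Factors of the epithelial to mesenchymal transition and mesenchyme genes had 39 rises (15.9%) and 99 falls (40.4%) in 245 regions of 15 genes, with a median 0.33 below all regions. A region inside Cdh2, the N-cadherin gene (chr18:16709033-16709433), fell from 271 and 295 to 15.3 and 5.26 (log2 -4.32), and 27 of its 41 regions fell while 5 rose. Snai1, a repressor of E-cadherin, had 7 falls and no rise in 13 regions. Vim, the vimentin gene of mesenchyme and endothelium, had 5 rises and 1 fall in 7. Smooth muscle genes had 27 rises (25.5%) and 35 falls (33.0%) in 106 regions, shares near those of all regions.

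The BMP and TGF-beta pathway, which patterns mesoderm, had 47 rises (13.7%) and 143 falls (41.6%) in 344 regions of 17 genes, with a median 0.34 below all regions. The rises numbered 86 without OE SP replicate 1, 75 after median-of-ratios rescaling and 72 after quantile scaling, and the falls 93 without WT DP replicate 2. Ligand genes had more falls than rises. Bmp2 had 19 falls and no rise in 25 regions, Bmp4 9 and none in 18, and Bmp7 19 falls and 4 rises in 40. Bmp5 had 5 falls and 1 rise in 14 regions and Tgfb1 2 and 1 in 6, shares of falls near that of all regions. A region 67.4 kb from Bmp2 (chr2:133630295-133630695) read 154 and 173 in WT DP and 3.65 and 6.57 in OE SP, a log2 change of -4.08 ± 0.22. Receptor genes were mixed, with 3 rises and 2 falls in 14 regions of Bmpr2, and 2 rises and 3 falls in 9 regions of Acvrl1, the endothelial ALK1 receptor gene. A region inside Smad1, a signal transducer gene (chr8:79350239-79350639), rose from 12.6 and 7.19 to 263 and 330 (log2 4.35), although Smad1 had 18 falls and 6 rises in 32 regions.

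The medians of the remaining lists, relative to all regions, ran from -0.18 (neuroectoderm) to 0.22 (housekeeping). AP-1 factor genes had 22 rises (18.8%) and 34 falls (29.1%) in 117 regions, and Hippo pathway genes 69 (29.6%) and 62 (26.6%) in 233. Pluripotency genes had 48 rises (25.1%) and 58 falls (30.4%) in 191 regions, endoderm genes 29 (24.6%) and 35 (29.7%) in 118, neuroectoderm genes 26 (12.2%) and 80 (37.6%) in 213, and housekeeping genes 22 (19.5%) and 26 (23.0%) in 113. Without OE SP replicate 1 the rises of the AP-1 list numbered 48 and those of the housekeeping list 50, and the falls of the Hippo list numbered 41 without either WT DP library. Single regions changed strongly in these lists too. A region 24.0 kb from Batf3, an AP-1 family gene (chr1:191132958-191133358), rose from 12.6 and 12.6 to 563 and 719 (log2 5.19). A region 30.6 kb from Dppa4, a pluripotency gene (chr16:48252785-48253185), rose from 9.71 and 10.8 to 498 and 865 (log2 5.44). A region inside Ncam1, a neural adhesion gene (chr9:49759499-49759899), fell from 254 and 239 to 10.2 and 5.26 (log2 -4.33).

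**Figure D3:**
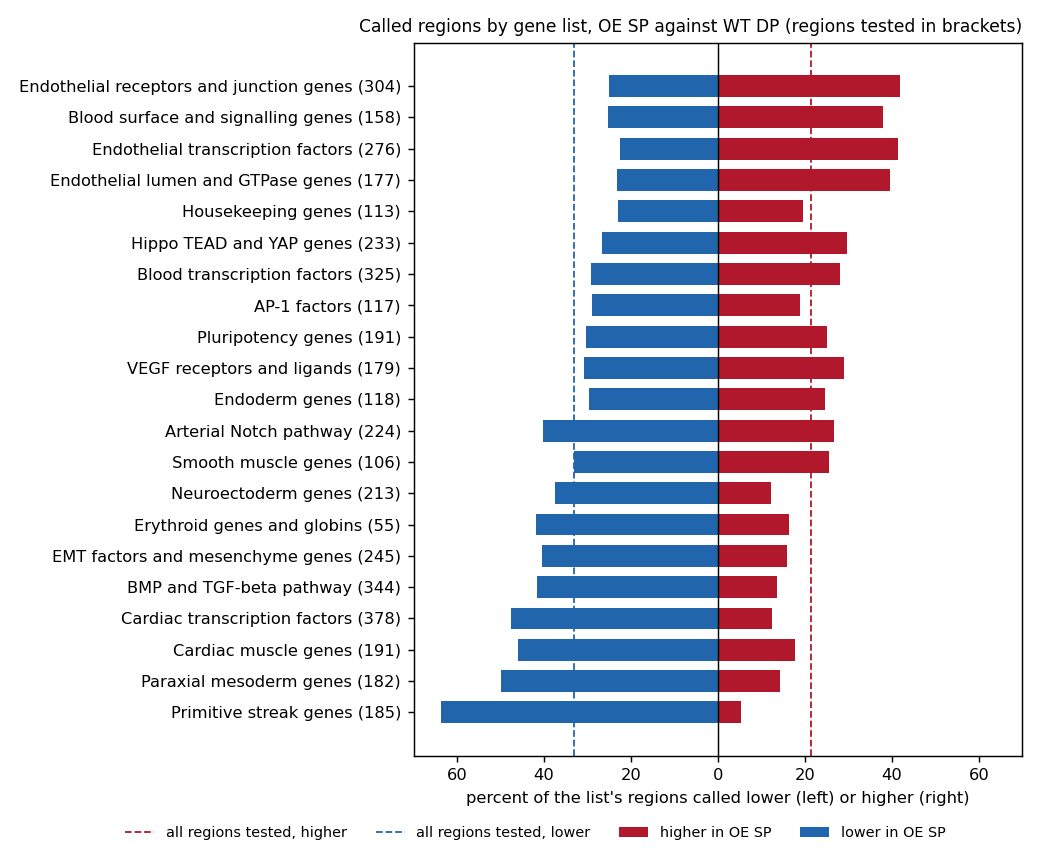
Share of each gene list's tested regions called higher (red, right) or lower (blue, left) in OE SP than in WT DP, with the number of tested regions in brackets and dashed lines at the shares over all regions, 21.3% higher and 33.2% lower. Lists are ordered by their median change; rises reach 41.8% in the endothelial receptor list and falls 63.8% in the primitive streak list.

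Defining markers of each cell type were also read on a summed scale, the normalized reads added over all regions of a marker set. Their counts of calls are read beside 21.3% rises and 33.2% falls for all regions. Endothelial markers (Cdh5, Pecam1, Tek, Emcn and Cldn5) summed to 4229 and 4135 in WT DP and 8145 and 11193 in OE SP, with 46 of 95 regions up and 18 down. Blood markers (Gata1, Itga2b, Ptprc and Tal1) summed to 2818 and 2863 in WT DP and 4766 and 6419 in OE SP, with 14 of 23 up and 3 down. Cardiac markers (Nkx2-5, Tnnt2 and Myl7) summed to 2753 and 2658 in WT DP and 1235 and 1900 in OE SP, with 2 of 23 up and 14 down. OE SP lay outside the WT DP range in both libraries for each of these sets. Paraxial markers (Tbx6, Msgn1 and Meox1) summed to 2869 and 2713 in WT DP and 1422 and 2017 in OE SP, with 3 of 23 up and 11 down. Markers of undifferentiated cells (Pou5f1, Nanog and Zfp42) summed to 1896 and 1932 in WT DP and 1497 and 1443 in OE SP. Of their 22 regions 5 were up and 8 down, shares near those of all regions. Fibroblast feeder markers (Col1a1, Col1a2 and Thy1) summed to 3552 and 3574 in WT DP and 2311 and 3327 in OE SP. Of their 46 regions 5 were up and 16 down, a share of falls near that of all regions. Thy1 had 3 rises and 2 falls, Col1a1 0 and 7, and Col1a2 2 and 7. Neural and endoderm markers were lower by smaller amounts in OE SP on the deposited scale. Ranges were 4052 to 4485 against 4656 to 4749 for Sox1 and Pax6, and 1581 to 1881 against 1996 to 2068 for Foxa2 and Afp. These sums were not rescaled. On the log2 scale the median-of-ratios factors were -0.20 and -0.02 in OE SP and 0.05 and 0.03 in WT DP. Differences as small as those of the neural and endoderm sets therefore depend on the scaling. No marker set was at 0 in any library. Accessibility at a marker is not expression, a bulk library cannot tell fewer cells of a type from less open chromatin per cell, and the part of cell mixture in the changes was not tested.

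With the deposited values, promoters changed less often than other regions, and some of the rises were promoters of the endothelial and blood lists. Promoter counts are given on this scale only, and the rises at gene ends moved with the scaling as described above. Of 12364 RefSeq promoter windows (300 bp, from 250 before to 50 after the start) that overlapped a tested region by at least 150 bp, 1479 rose (12.0%) and 1205 fell (9.75%). Among the windows of list genes, 38 of 168 rose and 27 fell. The Tie1 promoter, of the endothelial receptor printed first above, read 5.82 and 8.98 in WT DP and 312 and 461 in OE SP, a log2 change of 4.97 ± 0.27 with adjusted p = 9.85e-08 in limma. The promoter of Egfl7, a secreted vessel protein gene, read 26.2 and 23.4 in WT DP and 433 and 586 in OE SP (log2 4.10). The Erg promoter, of an ETS factor gene of endothelium, read 19.4 and 18.0 in WT DP and 284 and 455 in OE SP (log2 3.94). Each was nearly closed in both WT DP libraries and open in both OE SP libraries. The promoter of Itga2b, the CD41 gene of early blood and megakaryocytes, read 28.2 and 24.3 in WT DP and 333 and 586 in OE SP (log2 3.84), and that of Rasip1 19.4 and 14.4 in WT DP and 177 and 397 in OE SP (log2 3.63). The promoter of Pf4, the platelet factor gene, read 8.74 and 8.98 in WT DP and 140 and 248 in OE SP (log2 3.79), and that of Epb42 lies under the gene-end region given above.

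Rasgrp3, a Ras exchange factor gene of endothelium, had one promoter that rose and one that fell. Its upstream promoter read 3.88 and 4.49 in WT DP and 115 and 222 in OE SP (log2 4.17). Its second promoter, downstream of the first, read 794 and 750 in WT DP and 175 and 191 in OE SP (log2 -2.05). The groups did not overlap at either, and the second promoter remained the more open of the pair in OE SP replicate 1 but not in replicate 2. Among falling promoters, that of Msgn1, the bHLH master gene of presomitic mesoderm, read 242 and 243 in WT DP and 25.5 and 26.3 in OE SP, a log2 change of -3.00 ± 0.19. That of Otx2, a homeobox gene of the anterior neural plate, read 95.1 and 106 in WT DP and 19.7 and 6.57 in OE SP (log2 -2.64). The Actc1 promoter read 102 and 111 in WT DP and 14.6 and 30.2 in OE SP (log2 -2.09), and that of Myl7 99.0 and 97.9 in WT DP and 19.7 and 35.5 in OE SP (log2 -1.71). In all of these falls both OE SP libraries lay below both WT DP libraries.

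The ETS motif AGGAAG was frequent in the promoters that opened. On either strand, it occurred in 71.0% of the 568 windows that rose at least 2-fold, in 37.0% of the 489 that fell at least 2-fold, in 33.8% of all windows over tested regions and in 35.4% of all 32851 RefSeq windows of the same length. Opening promoters hold fewer CpG dinucleotides than most, with a median of 5 per window against 20 for all windows over tested regions. Among the 606 windows with no call and at most 5 CpG, with a median of 3, AGGAAG occurred in 42.4%. These uncalled windows are poorer in CpG than the rising windows and are not matched to them. The other ETS form, CCGGAA, itself holds a CpG. It occurred in 13.4% of the rising windows, 4.50% of the falling windows, 26.3% of all windows over tested regions and 5.12% of the uncalled CpG-poor windows. The GATA motif AGATAA occurred in 19.5% of rising, 21.9% of falling and 6.81% of all windows over tested regions, and in 14.2% of the uncalled CpG-poor windows. For the other motifs the shares are given for rising, falling and uncalled CpG-poor windows in turn. The E-box CAGCTG occurred in 22.2%, 25.4% and 25.7%, the TEAD motif GGAATG in 20.4%, 16.4% and 21.9%, and the AP-1 motif TGACTCA in 10.2%, 7.16% and 10.4%. The SOX motif ACAAAG occurred in 25.7%, 19.4% and 21.1%, the forkhead motif TGTTTAC in 5.11%, 5.32% and 4.29%, and the T-box motif AGGTGT in 15.5%, 18.6% and 15.5%. Over all windows above tested regions these shares were 16.4%, 12.2%, 4.10%, 13.4%, 2.64% and 11.0%, in the same order of motifs. Among the printed promoters, AGGAAG on either strand begins 219 bases before the start in Tie1, 80 in Egfl7, 40 in Erg, 125 and 43 in Itga2b, 9 in Pf4, 91 in Rasip1 and 49 in the upstream promoter of Rasgrp3. Neither ETS motif lies in the printed bases of the rising Epb42 promoter. The upstream Rasgrp3 promoter also holds CCGGAA 77 bases before the start. Of the falling promoters, those of Msgn1 and Actc1 hold AGGAAG too, 147 and 141 bases before the start, and neither motif lies in the printed bases of Otx2, Myl7 or the second Rasgrp3 promoter. The shares above use the 300 bp windows, which reach past the printed bases. There AGGAAG also begins 11 bases after the start in the falling Otx2 and 20 in the falling Msgn1 promoter. Among the rising promoters it begins 33 after in Tie1 and 40 in Egfl7, and CCGGAA begins 14 after in Pf4. A match is a string of letters and was not measured as a bound site.

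The regions that changed between WT DP and OE SP were also read in the 4 libraries outside the comparison, WT SP and KO DP. These share neither library nor doxycycline with OE SP, and differ from each other in gate and in genotype, which cannot be told apart. KO DP also differed in the median level of some chromosomes. Its median level was 39.7 on chromosome 8, against 35.7 in WT SP and 36.1 in WT DP. On chromosome 4 it was 35.3, against 39.1 in both WT SP and WT DP. A median does not show whether a whole chromosome or a part of it shifted. The part of these shifts in the calls between WT SP and KO DP was not tested. Over all regions 14.8% were higher in WT SP than in KO DP and 10.4% were lower. Of the regions that rose at least 4-fold in OE SP, 3827 (38.3%) were higher in WT SP than in KO DP and 31 (0.31%) were lower. Of those that fell at least 4-fold, 5711 (44.9%) were lower in WT SP and 360 (2.83%) were higher. For all called rises the shares were 24.8% and 1.38%, and for all called falls 24.2% lower and 7.08% higher. These shares move with the setting, and so do the shares over all regions, which are given beside them. With only the groups of each comparison fitted, 37.6% of the rises were higher in WT SP (28.3% of all regions) and 39.5% of the falls were lower (16.4%), while 14.0% of the falls were higher. At a mean of at least 50, 45.8% of the rises were higher (24.1%), and after rescaling on the 10000 highest regions 15.7% (7.75%). Leaving out WT SP replicate 1 gave 8.50% of rises higher (3.60% of all regions), 10.9% of falls lower (4.50%) and 1.72% of falls higher. Without WT SP replicate 2 the values were 9.53% (4.33%), 12.2% (5.07%) and 1.84%. Without KO DP replicate 1 they were 10.6% (5.34%), 10.05% (4.14%) and 2.31%, and without KO DP replicate 2 9.16% (3.96%), 11.0% (4.51%) and 1.87%. For changes of at least 4-fold, leaving out 1 of these libraries gave 17.0% to 19.5% of rises higher and 23.4% to 27.5% of falls lower.

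At regions chosen by the difference between OE SP and WT DP, WT SP levels lay far short of OE SP. That choice favours extreme values in OE SP, so the order carries no test. The order did not hold at every called rise: the Radil promoter read 56.9 and 84.1 in OE SP and 160 and 179 in WT SP. At the regions that rose at least 4-fold, the median was 17.3 and 16.9 in the WT SP libraries and 8.40 and 8.32 in KO DP, beside 70.8 and 93.3 in OE SP. At the regions that fell at least 4-fold it was 52.9 and 54.5 in WT SP and 90.3 and 85.6 in KO DP, beside 10.9 and 13.1 in OE SP. Among single regions, the Flt1 region above read 201 and 185 in WT SP and 12.6 and 10.7 in KO DP, and the Tek region 112 and 117 against 18.5 and 21.4. The Fli1 region read 67.2 and 69.4 in WT SP and 5.04 and 10.7 in KO DP. In each, the WT SP libraries were above KO DP and below OE SP. The Gata2 region read 18.3 and 17.8 in WT SP and 15.1 and 15.5 in KO DP and did not pass the test (adjusted p = 0.582 in limma). The Myocd region read 134 and 123 in WT SP and 128 and 138 in KO DP and did not pass it either (adjusted p = 0.89 in limma). The Tbx6 region read 224 and 234 in WT SP and 744 and 601 in KO DP, and the Pdgfra gene end 272 and 270 against 686 and 638, so that both were lower in WT SP, though above OE SP.

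**Figure D4:**
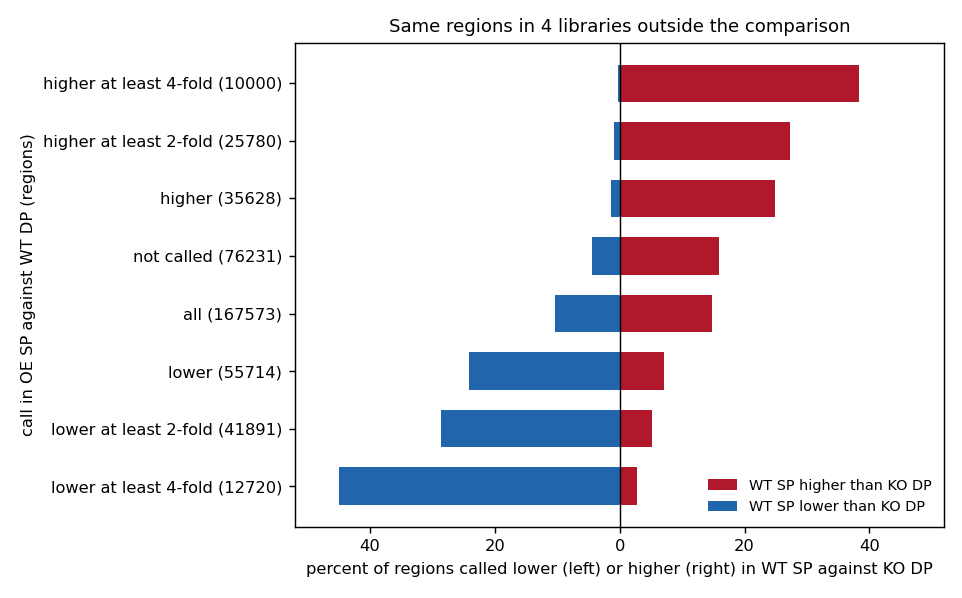
Share of regions called higher (red, right) or lower (blue, left) in WT SP than in KO DP, for sets of regions defined by their call in OE SP against WT DP, with the number of regions in brackets. The share higher runs from 38.3% in the 4-fold rises to 2.83% in the 4-fold falls, and the share lower from 0.31% to 44.9%, with 14.8% and 10.4% over all regions.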

How the data were processed

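Chromatin accessibility was measured by ATAC-seq in 8 libraries, of which the 4 of WT DP and OE SP are compared. The submitters' processing notes name Bowtie2, MACS2, DiffBind 3.14.1 and mm10 without their roles. The deposited values are a signal per region, normalized reads, and in each library all were whole multiples of 1 step at a tolerance of 0.01 reads. In WT SP replicate 2 that step, 0.991, is too near 1 to tell whole reads from rounding, so WT SP entered no count test. The sources used here do not give how the authors set the factors, shifted reads, treated duplicates or pooled libraries for peak calling. Factors of another kind would move the balance of rises and falls.

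Regions with a mean of at least 10 were fitted on the log2(value + 5) scale by limma 3.58.1 (R 4.3.3), with 4 group means and an empirical Bayes trend (4 residual and 8.15 prior degrees of freedom). A region was called at a two-sided p below 0.05 after Benjamini-Hochberg adjustment over the 167573 regions, and log2 changes on this scale understate low regions. The fit was tested on simulated data. A RefSeq gene table of GRCm38.p6 gave each region its closest protein-coding gene, up to 100 kb away and without strand. Named regions are those of Etv2, Kdr and Pdgfra, the 10 largest rises and falls without overlap, the 10 genes with most rises and most falls, and in each list up to 3 genes by lowest adjusted p. The comparison, gene lists and rules were chosen with earlier results of these data known. Alternatives were other pseudocounts, filters and scalings, the compared groups alone, a replicate block, leaving out each library, and edgeR 4.0.16 and DESeq2 1.42.0 on recovered reads of WT DP, OE SP and KO DP. Replicate numbers did not pair the samples.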

Additional observations from a re-analysis of the deposited data

How the results depend on the processing

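Of 133 named regions with a call, 120 kept it under every alternative run and 13 lost it under at least 1. With a mean of at least 50, 9647 regions were higher and 21259 lower in OE SP, since fewer regions were tested. With the replicate number as a block, 35052 were higher and 55506 lower in OE SP, and 22809 higher and 16808 lower in WT SP against KO DP; deviations of same-numbered libraries correlated at -0.00 to 0.06. DESeq2 gave 32009 and 37333, edgeR 46513 and 48305, median-of-ratios rescaling 46808 and 51493 and quantile scaling 45395 and 49103. Leaving out 1 library gave 27723 to 48096 rises and 44321 to 64398 falls.

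For WT SP against KO DP, 47373 regions were higher and 27545 lower with only those groups in the fit, 15531 and 6584 at a mean of at least 50, and 12985 and 28329 after rescaling on the 10000 highest regions. Leaving out 1 library gave 6032 to 8945 higher and 6945 to 8500 lower. The cause of these shifts was not tested. Fewer regions were tested at a mean of at least 50, and fewer samples entered the fits of those groups alone or with a library left out. Count tests were not run for this pair.

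The size of change at regions nearly closed in one group moved with the pseudocount: the rise inside Prdm15 was 7.30 on the log2 scale with a pseudocount of 1 and 5.11 with 20. With a pseudocount of 20, changes of at least 2-fold numbered 16961 upward and 23998 downward. Median changes near 0 changed sign in the Hippo, endoderm, smooth muscle and Notch lists under at least 1 alternative. Depth limits regions near the minimum of 10 reads, where rises from a nearly closed state rest on few reads, and intervals for such reads would cover counting error only.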
